A study of Rattus norvegicus with 16 samples.

Results

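The 30 hairpins described here were listed in the read position tables of the study under provisional block identifiers, with neither a rat name nor the name of a human or mouse homologue. They were chosen by that identifier alone, and they made up 30 of the 392 hairpins in the tables, beside 330 hairpins with a rat name and 32 named from human or mouse. Reads fell on 46 arms of the 30 hairpins, of 712 arms in all. Each identifier was joined to the name the study later gave it by the positions of its reads on the hairpin. For mir-3594 only the lengths of the reads and their libraries could be used. The hairpins appear below as mir-3559, mir-741 and so on. The label "without known homologues" follows the study and the miRBase release it used. It does not hold strictly for mir-741, for which the paper itself describes a partially conserved mouse counterpart, mmu-mir-741. Names such as mir-741 and mir-1912 are also carried by miRNAs of mouse or human.

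Small RNA was sequenced from kidney, testis, heart, spleen, liver and whole brain of adult males of 2 inbred rat strains, BN-Lx (a Brown Norway congenic) and SHR (the spontaneously hypertensive rat). A single rat of each strain gave all 6 tissues, so that each tissue was represented by 1 library per strain and strain could not be told apart from the individual in the 12 libraries of this set. Another 4 livers, 2 of each strain, were sequenced as well and gave 3 livers per strain in all. The hairpins used for mapping had been found in the pipeline run of the study, which asked for reads placed as Dicer products, a stable hairpin and a minimum number of reads, so that well defined ends and arms are in part a property of the selection.

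MiRNAs are short RNAs cut from a hairpin by Drosha in the nucleus and by Dicer in the cytoplasm, which leaves a duplex of a 5' arm and a 3' arm with short overhangs. An Argonaute protein keeps one strand, and bases 2 to 8 from its 5' end, the seed, do most of the pairing with target mRNAs. A steady 5' end is therefore the usual mark of a miRNA, since a shift of a base gives another seed. Many miRNAs are bound to a tissue, and X-linked clusters with expression in the male germ line are a well known case.

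Depth ranged from 403453 to 1064894 hairpin reads for brain, liver, spleen, heart and kidney of the six-tissue set, was only 26880 and 29131 for the BN-Lx and SHR testis, and was 1167607 to 3229461 for the further livers. A count of 0 allows up to 3 reads, which corresponded to 112 and 103 RPM (reads per 1000000 hairpin reads) in the testis libraries and to 2.82 to 7.44 in the others of the set. The marker hairpins of brain, liver, spleen, heart and testis were highest in the libraries of their own tissue, whereas the kidney list (mir-192, mir-194, mir-200b, mir-204) reached 150141 RPM in a liver and 102852 and 86675 in the kidneys. Reads are copies after PCR, testis and the first SHR liver had more cycles than the rest, and the intervals below cover counting error only.

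The sequences on which the results turn are shown from the RefSeq entries (GRCr8), which hold 29 of the 30 hairpins and 42 mature sequences of them, in RNA letters from 5' to 3' with the seed in capitals. The first group was read mostly in brain, and is shown because the mir-344b copies differ within the seed.
mir-344b-1-3p: gAUAUAACcaaagcccgacugu
mir-344b-2-3p: gGUAUAACcaaagcccgacugu
mir-344b-1-5p: aGUCAGGCugcugguuauauuc
mir-3547-3p: uGAGCACCaccccucucucagau
mir-3085-3p: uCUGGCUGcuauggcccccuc
mir-3552-5p: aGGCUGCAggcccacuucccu
mir-1912-3p: cACAGAACaugcagugaga
mir-2985-3p: uGUUAUAGuaucccaccuaccc

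The second group holds the X-linked sequences read in testis, and the third the liver miRNA that gave most reads, with both of its arms.
mir-741-3p: aAAGAUGCcacgcuauguagau
mir-3580-3p: uGACUAGGguaguaugaguaga
mir-3551-3p: uGAAAUUCaccaugguggguaaa
mir-3585-5p: uUCACAAGaaggugucuuucau
mir-3559-5p: uGACAGACuuaguacuacauga
mir-3559-3p: aUGUAGUAcugagucugucgug

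The fourth group is shown for a shared feature of 3' arms, many C and U and an AG at or next to the end.
mir-3542-3p: aAGGCUCUucuuuccuugcag
mir-3550-3p: cCGAGCCCaucccugcccuag
mir-3572-3p: uUACACUUgcccuuuuuuccccag
mir-3583-3p: cCUGACUUcucucuucaugcag
mir-3594-3p: cACACCGCcucugcccgcuagu

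Few of these seeds occurred elsewhere among rat miRNAs, though the share for other mature sequences is not given here. Of the 42 mature sequences, 5 shared their seed with a mature miRNA of another hairpin in RefSeq. The identical 5' arms of both mir-344b copies shared it with miR-344g, mir-344b-1-3p with miR-410-3p, mir-3573-5p with miR-423-5p and mir-741-5p with miR-376c-3p. The 3' arms of mir-344b-1 and mir-344b-2 differed by the single substitution A2G, counted from 1 at the 5' end and written from copy 1 to copy 2, and copy 2 shared its seed with no entry of another name. A U stood first in 47.6% of the 42 sequences and in 36.9% of the 680 other rat mature sequences.

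Reads of the 30 hairpins were few apart from a single locus. Together they gave 12683 of 6361646 reads in the 12 six-tissue libraries, or 0.199%, and 70691 of 15196294 in all 16. The mir-3559 hairpin alone held 80.6% of the former, and the 29 others shared 2455 reads. The median hairpin had 24 reads, against 1477 for the 325 detected hairpins with a rat name and 131 for the 32 named from human or mouse. At least 100 reads were reached by 5 hairpins (mir-3559, mir-741, mir-3580, mir-344b-2 and mir-344b-1), 15 had from 10 to 99, and 10 had under 10, among them mir-3562, mir-3564 and mir-3566 with 1 read each, all in BN-Lx brain. At least 50 reads were reached by 10 of the 30 in the 12 libraries and by 14 in all 16.

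**Figure D1:**
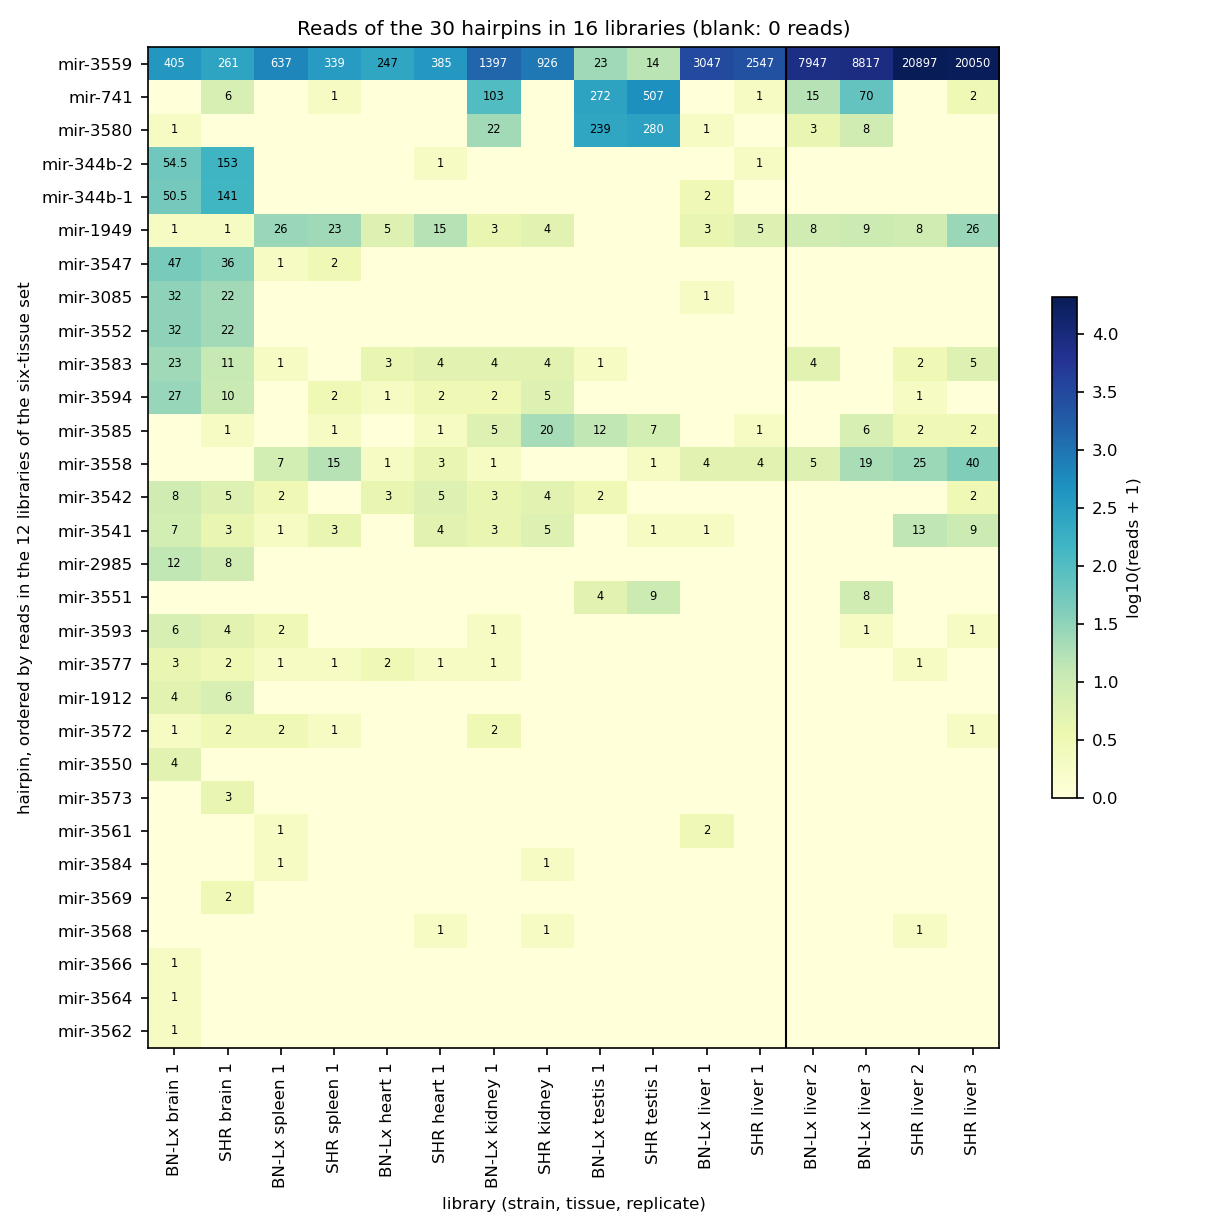
Reads of each of the 30 hairpins (rows, by total) in each of 16 libraries (columns; the line sets off the further livers), printed in the cell with colour as log10(reads + 1). Only mir-3559 fills the whole top row, in 16 of 30 rows the brain columns hold over 50% of the six-tissue reads, and mir-741 and mir-3580 stand out in testis and BN-Lx kidney.

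By the sum of reads, brain was the leading tissue for 19 of the 30 hairpins, testis for 3, liver and spleen for 2 each and kidney for 1. The other 3 were tied, mir-3572 between brain and spleen, mir-3584 between spleen and kidney, and mir-3568 between heart and kidney. In brain 25 of the 30 were detected, in spleen and kidney 15, in liver and heart 11 and in testis 9. The brains were the deepest libraries of the set and the testes the shallowest, and the part of depth in these counts was not tested. Sums of reads also differ from levels: mir-3585, led by kidney in reads, was highest in testis by the level of its 5' arm. The shares of other hairpins led by or detected in each tissue are not given here. In bulk tissue a lower level from fewer cells of a type and from less RNA per cell cannot be told apart.

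Reads on both arms, which a Dicer cut is expected to leave, were present for 15 of the 30 hairpins, against 289 of 353 other hairpins (81.9%). With at least 10 reads on each arm the number was 4, namely mir-3559, mir-344b-1, mir-344b-2 and mir-3583. The 5' arms of the mir-344b copies are identical, and their reads were divided evenly, 21.5 to each. The same reads thus gave both copies their 5' arm, and how many came from either copy cannot be told. Another 5 hairpins had at least 2 reads on each arm: mir-3580, mir-3594, mir-3585, mir-3558 and mir-1912. Read numbers differed between these sets as well, with the medians given above, and their part in the lower share was not tested.

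The 3' arm led in 20 hairpins and the 5' arm in 9, with 1 tie. In mir-3559 the 5' arm had 10213 reads and the 3' arm 15, which gave the 5' arm 99.9% of reads (95% exact interval 99.8 to 99.9%). In mir-741 the 3' arm had 889 reads and the 5' arm 1. In mir-3580 the numbers were 539 and 4. These hairpins were thus read nearly from a single arm. The arms were least unequal in mir-3583 among those with at least 10 reads, with 39 reads on the 3' arm and 12 on the 5' arm, 76.5% on the leading arm (62.5 to 87.2%). Of the hairpins with at least 10 reads, 7 were read from the 3' arm only (mir-1949 and mir-3547 with 86 reads each, mir-3085 with 55, mir-3542 with 32, mir-3541 with 28, mir-2985 with 20 and mir-3577 with 11), and mir-3552 was read from the 5' arm only, with 54 reads.

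**Figure D2:**
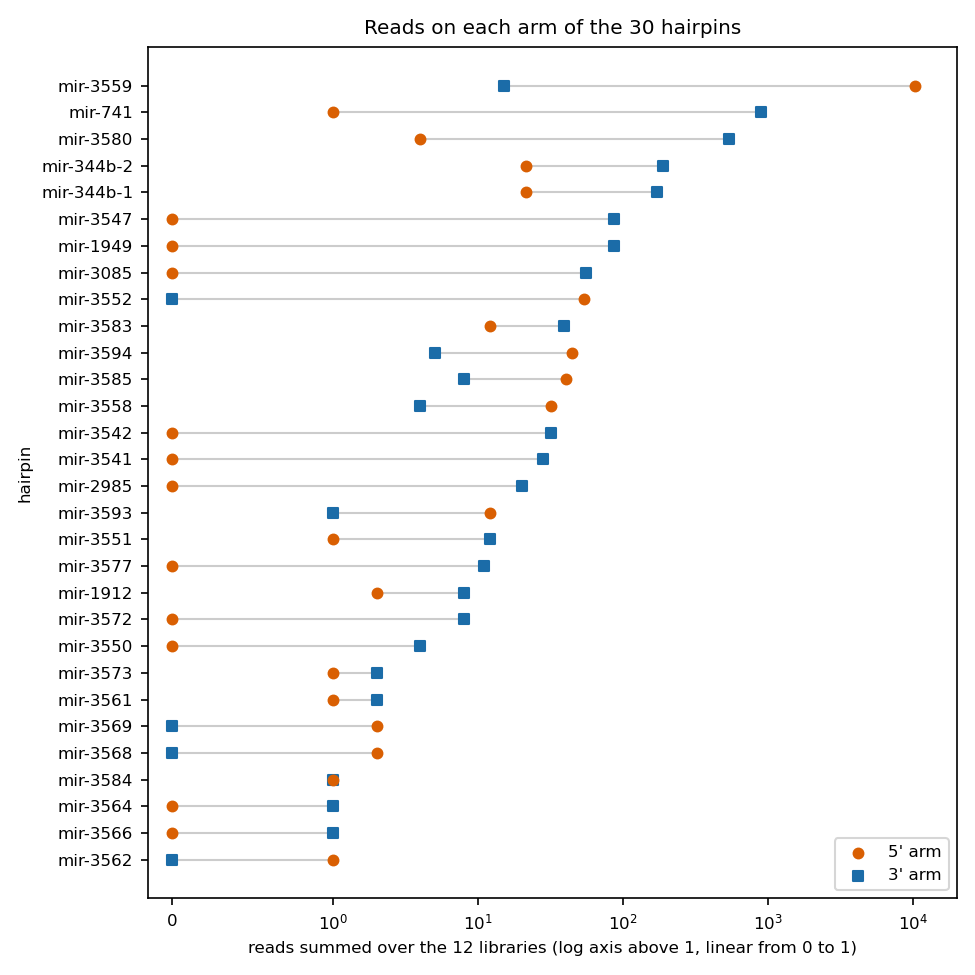
Reads on the 5' arm (circles) and the 3' arm (squares) of the 30 hairpins, summed over the 12 libraries of the six-tissue set, on an axis that is logarithmic above 1 read. The 3' arm lies to the right in 20 hairpins, and 15 of the 30 have an arm at 0.

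The 5' ends of the reads were steady in most arms. Among arms with at least 10 reads, 20 of 23 (87.0%) had at least 80% of their reads at the most used 5' start, against 432 of 530 arms (81.5%) of the other hairpins. The identical 5' arms of both mir-344b copies, which share the same divided reads, are each counted in the 20, with 88.4%. The median share at that start was 91.7% for the 23 arms and 95.8% for the 530. At the 3' end the medians were 65.0% and 57.0%, and the 5' end was steadier than the 3' end in 21 of the 23. When starts within 1 nt were counted together, all 23 arms passed.

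**Figure D3:**
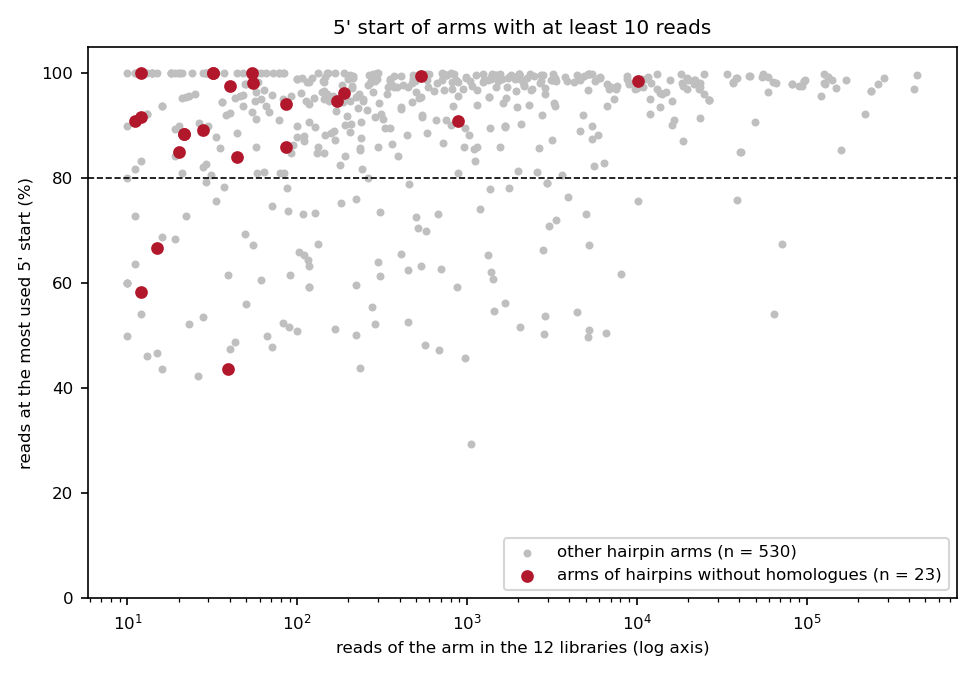
Share of reads at the most used 5' start (%) against the reads of the arm (log axis) for the 23 arms of the 30 hairpins (red) and 530 arms of other hairpins (grey) with at least 10 reads in the 12 libraries; the dashed line is 80%. The 3 red points under the line are mir-3559-3p, mir-3593-5p and mir-3583-3p.

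The steadiest arms with over 30 reads were mir-3552-5p, mir-3542-3p and mir-3558-5p, in which each of 54, 32 and 32 reads began at the same base. For mir-3559-5p the share was 98.4% (98.2 to 98.7%), for mir-3580-3p 99.4% (98.4 to 99.9%) and for mir-741-3p 90.9% (88.8 to 92.7%). The arms below 80% were mir-3559-3p with 66.7% of 15 reads, mir-3593-5p with 58.3% of 12 reads and mir-3583-3p with 43.6% of 39 reads (27.8 to 60.4%). The last is thus a hairpin with 10 or more reads on both arms in which the more abundant arm had no dominant start, while its 5' arm kept 91.7% of 12 reads at a single base.

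Both strains used the same most frequent start in 21 of the 23 arms. In single libraries with at least 3 reads of an arm, 84 of 87 had the start of the sum over the libraries, and the 12 libraries of mir-3559-5p all did. The starts were also those of the RefSeq entries in 39 of 40 sequences that could be compared, but the study submitted its sequences to miRBase, so that this is no independent observation. Where both arms had reads and the hairpin was in RefSeq, the most frequent read of each arm was laid on the predicted fold. In 7 of 14 such hairpins each arm left a 3' overhang of 1 to 3 nt, and the share of other hairpins is not given here. Among the 7, mir-3551, mir-3561, mir-3573, mir-3593 and mir-741 had an arm with only 1 read. The better read mir-344b-1 and mir-344b-2 were not among them, with 2 nt at the base end and 0 at the loop end. The overhangs were 2 nt at both ends in mir-3559 and mir-3561, and the 3' arm of mir-3583 fell 4 nt short of its base end (an overhang of -4). The predicted free energy had a median of -0.440 kcal/mol per nt for the 29 hairpins and -0.425 for 390 other rat hairpins.

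Reads in both strains of the same tissue were found for 21 of the 30 hairpins (70.0%), against 312 of 357 other hairpins (87.4%). With at least 3 reads in each library 19 remained in the count, and with at least 10 reads 11. The 9 without such a pair were mir-3550, mir-3573, mir-3561, mir-3584, mir-3569, mir-3568, mir-3566, mir-3564 and mir-3562, none of which had over 4 reads in the 12 libraries. By tissue, 16 hairpins were present in both brains, 7 each in both spleens, hearts and kidneys, 5 in both testes and 3 in both livers. Only mir-3559 was read in both strains of all 6 tissues.

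The tissue comparison asked which arms were higher in a tissue than in the mean of the 5 others, with tissue and strain as terms in edgeR's quasi-likelihood test on all arms. Of the 46 arms, 12 had enough reads to be tested, among 458 arms tested in all, and the other 34 are described by their reads only. At an adjusted p of 0.05, 5 of the 12 were higher in brain (38.9% of all arms tested were), 3 in testis (11.1%), 2 in spleen (18.3%), 2 in kidney (15.5%), 1 in liver (13.8%) and none in heart (12.7%). Lower calls fell on 3 of the 12 in brain (23.1% of all arms) and 1 in testis (14.0%), and on none in liver (12.2%), spleen (10.9%), heart (6.77%) or kidney (6.99%). An arm that passed the filter only by the tissue where it is high had to differ, so these counts say little beyond which tissue each arm belonged to. The same holds for the fitted differences and adjusted p-values of such arms given below.

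In liver mir-3559-5p was the leading sequence of the 30 hairpins. It comes from chrX:73660193-73660214 on the minus strand, inside the bounds of Zdhhc15, which codes for a palmitoyltransferase. In the six-tissue set it had 6490 RPM in BN-Lx liver and 5076 in SHR liver. The kidneys followed with 2566 and 1549, and the spleens had 862 and 682. In testis it was at 856 and 481, in heart at 610 and 611, and in brain at 380 and 303, each time for BN-Lx before SHR. The liver and kidney libraries thus stood above all others and did not overlap with each other, the testes overlapped with spleen and with heart, both spleens were above both hearts, and both brains were lowest.

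Relative to the mean of the other tissues mir-3559-5p was higher in liver by 3.78 ± 0.27 (log2, SE; edgeR adjusted p = 3.9e-07) and in kidney by 1.15 ± 0.30 (adjusted p = 0.016). It was lower in brain by -2.57 ± 0.39 (adjusted p = 0.00011) and in testis by -1.85 ± 0.39 (adjusted p = 0.0036). The kidney call was lost when libraries were scaled by the size factors of DESeq2's method or by the study's outlier-corrected mean, with all 16 libraries, and without the BN-Lx kidney, and the testis call with the outlier-corrected mean. Among all arms of a library mir-3559-5p ranked between 18 and 35 in the 6 livers and between 172 and 177 in the brains. Its 3' arm followed at a far lower level, with 9 and 3 reads in the first livers and 8, 5, 7 and 16 in the further ones, against 3 reads in the other 10 libraries together.

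**Figure D4:**
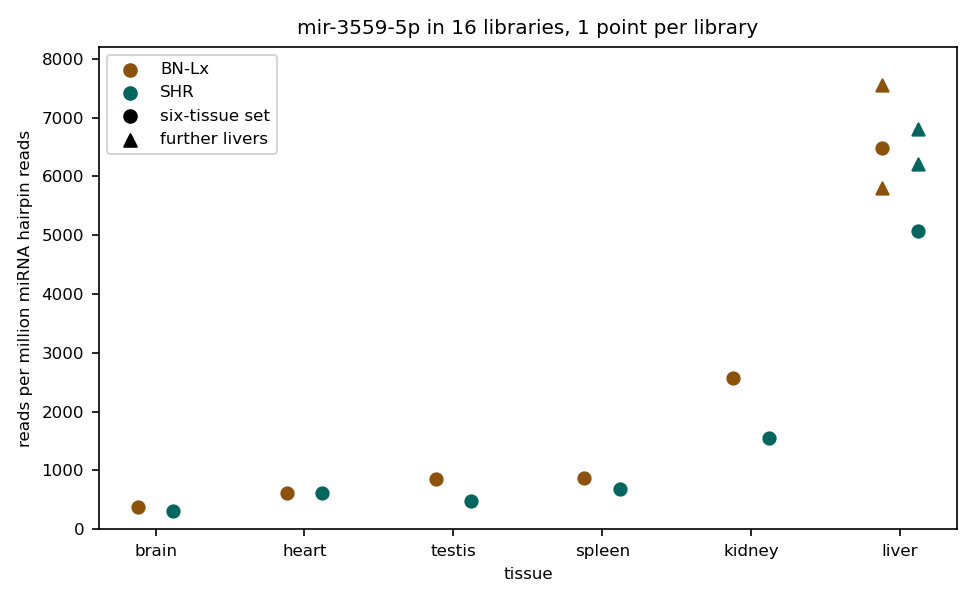
Level in RPM of mir-3559-5p in each of the 16 libraries, by tissue, with BN-Lx in brown and SHR in green, circles for the six-tissue set and triangles for the further livers. The 6 livers lie between 5076 and 7547, the kidneys at 1549 and 2566, and all other libraries at 862 or less, with no overlap between the 3 levels.

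Between the strains no difference of the livers in mir-3559-5p passed a test. The 3 BN-Lx livers had 6490, 5797 and 7547 RPM (mean 6611 ± 881, SD, n = 3) and the 3 SHR livers 5076, 6809 and 6204 (mean 6029 ± 880, SD, n = 3), and the groups overlapped. The exact two-sided permutation test gave p = 0.50, where 0.10 is the smallest that 3 against 3 allow, and edgeR gave a log2 difference of -0.02 ± 0.41 (SE) for SHR over BN-Lx with an adjusted p of 0.99. Only mir-3559-5p and mir-3558-5p passed the filter among the livers, of 270 arms tested. None of the 270 arms was called by edgeR (0.0%) or by DESeq2. At an unadjusted p of 0.05 edgeR had 8 arms (2.96%) and DESeq2 16, and neither of the 2 was among those of edgeR.

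The spleen sequences were mir-1949-3p and mir-3558-5p. The former, within the bounds of Matr3, a nuclear matrix gene, had 26 and 23 reads in the BN-Lx and SHR spleens, 5 and 15 in the hearts, 3 and 5 in the first livers, 3 and 4 in the kidneys, 1 in each brain and 0 in each testis. By level the spleens, with 35.2 and 46.3 RPM, were above all other libraries except the testes, where 0 reads allow up to 112 and 103 RPM. In the fit mir-1949-3p was higher in spleen by 3.91 ± 0.75 (log2, SE; edgeR adjusted p = 0.0024). Of its 137 reads in all 16 libraries, 51 came from the further livers, with 8 and 9 from BN-Lx rats and 8 and 26 from SHR. Without the BN-Lx spleen library it was not called in spleen.

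For mir-3558-5p, in the bounds of Ttc7a, the spleens had 5 and 13 reads and the livers of the set 4 each. Another 6 reads were spread over heart, kidney and testis, and neither brain had any. It was higher in spleen by 2.69 ± 0.89 (log2, SE; edgeR adjusted p = 0.042), a call that was lost in 13 of 18 alternative fits, and lower in brain by -4.81 ± 1.59 (adjusted p = 0.021). The brain call was lost in 4 of 18, without either brain, the BN-Lx kidney or the SHR testis, with a value of -3.95 in the last. In the fits without the BN-Lx spleen (3.36) or the SHR spleen (1.91) it was not called in spleen, and without the SHR testis the value was 3.79. The further livers added 4 and 16 (BN-Lx) and 22 and 34 reads (SHR), so that 76 of its 108 reads came from them. By level the 6 livers ranged from 2.92 to 13.7 RPM and the strains overlapped.

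In brain 5 arms were higher. They came from both mir-344b copies, mir-3547, mir-3085 and mir-3552, and they were read in few other libraries. The mir-344b copies lie 7086 bp apart on chromosome 1, and the older family member mir-344-1 had 266.5 and 260 reads in the BN-Lx and SHR brains. The 3' arm of mir-344b-1 had 36.5 and 133.5 reads there and 2 elsewhere, and that of mir-344b-2 had 40.5 and 145.5 reads and 2 elsewhere. Reads that fit more than a single hairpin had been divided by the authors, hence the broken numbers. The base that tells the copies apart lies at position 2, and 36 and 129 of the reads given to copy 1 covered it, as did 40 and 141 of those given to copy 2, so that both sequences were read in both strains. RefSeq lists a further copy, mir-344b-3, with a hairpin identical to that of mir-344b-2, and the reads given to mir-344b-2 cannot be told apart from it. The fits gave 7.19 ± 1.19 for mir-344b-1-3p (log2, SE; edgeR adjusted p = 0.00084) and 7.20 ± 0.90 for mir-344b-2-3p (adjusted p = 9.0e-05). For mir-344b-1-3p the value was 4.93 without the SHR brain, where it was not called, 9.25 without the BN-Lx brain and 8.22 without the BN-Lx liver.

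The brains of the 2 strains differed in how mir-344b was read, with a single library each. Its 3' arms together had 77 reads in the BN-Lx brain and 279 in that of SHR, a level 4.48 times higher in SHR (95% exact interval 3.47 to 5.85, counting error only). The 5' arms, whose reads fit both copies and were divided evenly, had 28 and 15 reads. The 5' arm thus took 26.7% of the reads in BN-Lx (18.5 to 36.2%) and 5.10% in SHR (2.88 to 8.28%). Short reads differed as well: 33.8% (23.4 to 45.4%) of the 3' reads in BN-Lx were 18 nt or less, against 6.09% (3.59 to 9.58%) in SHR, whereas all hairpin reads of these libraries had 1.83% and 1.72% of this length. The short share was higher in BN-Lx in copy 1 (21.9% against 2.25%) and in copy 2 (44.4% against 9.62%). Brain marker hairpins stood higher in the SHR brain as well, with 6 hairpins summing to 33391 RPM in BN-Lx and 71655 in SHR, and the part of this in the mir-344b values was not tested. Strain, rat and library cannot be told apart here.

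The next sequences, mir-3547-3p and mir-3085-3p, were read in both brains. For mir-3547-3p, inside the bounds of Baiap3, the brains had 47 and 36 reads and the spleens 1 and 2, and no other library had any. Its pooled level in brain was 63.7 times that of the other tissues (21.1 to 315), and the fit gave 6.25 ± 1.20 (log2, SE; edgeR adjusted p = 0.0019). For mir-3085-3p, which lies in no annotated protein-coding gene, the reads were 32 and 22 in brain and 1 in BN-Lx liver, with a ratio of 124 (21.4 to 5004) and a fitted value of 5.77 ± 1.36 (adjusted p = 0.0058). Without the SHR brain mir-3085-3p was at 5.10 and not called, nor was it without the BN-Lx brain, and without the BN-Lx brain mir-3547-3p was at 5.55 and called. Leaving testis aside, both sequences were thus nearly bound to brain, with wide intervals that follow from 3 reads or fewer elsewhere. Their brain levels lay below what 0 reads allow in the testes, so no excess over testis was shown.

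Both mir-3552 and mir-1912 lie inside the bounds of Htr2c, the gene of a serotonin receptor, on the plus strand of the X chromosome. The mature mir-3552-5p is at chrX:115488778-115488798 and its hairpin lies 1775 bp from mir-764. The mature mir-1912-3p is at chrX:115498072-115498090, with its hairpin 7274 bp from the same neighbour. For mir-3552-5p 32 and 22 reads were found in the BN-Lx and SHR brains and none in the other 14 libraries, at least 41.5 times the level of the other tissues of the set when 3 reads are allowed over their 10 libraries. The fitted value was 6.37 ± 1.48 (log2, SE; edgeR adjusted p = 0.0069), for an arm that could pass the filter only by its brain reads. For mir-1912 the brains had 4 and 6 reads on its 2 arms, and no other library had a read. The brain levels of both miRNAs lay below what 0 reads allow in the testes, so no excess over testis was shown.

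Their known neighbours in the same gene were read in the same tissue. The arms of mir-448 and mir-764 had 232 and 214 reads in the BN-Lx and SHR brains and 3 in the other 10 libraries of the set.

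Under DESeq2 only mir-344b-2-3p was called in brain, and without either brain library 3 of the 5 arms were. Among sequences too rare for the test, and named after their values were seen, was mir-2985-3p, in the bounds of the glutamate receptor gene Gria2. It had 12 and 8 reads in the brains and none in any other library, at least 15.4 times the pooled level of the other tissues. Its brain levels of 11.3 and 9.30 RPM lie below what 0 reads allow in the testes, so no excess over testis was shown. The 5' arm of mir-3594, in the bounds of Cep131, had 26 reads in the brain of BN-Lx and 6 in that of SHR, a ratio of 3.50 (1.41 to 10.4, counting error only), and 12 reads in the other 10 libraries of the set. Its neighbour mir-3562, 2050 bp away, had 1 read in all. The hairpin of mir-3541, in the bounds of Clk2, lies 52943 bp from mir-92b. It was read in all 6 tissues with 7 reads at most per library of the set. In the further livers its 3' arm had 12 and 9 reads in SHR and 0 in both of BN-Lx. The SHR libraries were deeper, and these reads came to 3.91 and 2.79 RPM. In the BN-Lx libraries 0 reads allow up to 2.19 and 2.57 RPM. The first livers had 1 read in BN-Lx and 0 in SHR, and the strains overlapped in level.

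In testis the X-linked mir-741-3p and mir-3580-3p were the leading members. They lie at chrX:150465166-150465187 and chrX:150486426-150486447 on the minus strand, among the miRNAs known as the mir-463 cluster of the mouse and rat male germ line, with 12 annotated hairpins within 100 kb of each. Their share of reads was large: without mir-3559 the hairpins described here took 1.97% of BN-Lx and 2.76% of SHR testis reads, against 0.00239 to 0.0509% in the other 10 libraries.

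For mir-741-3p the BN-Lx and SHR testes had 271 and 507 reads, or 10082 and 17404 RPM, and for mir-3580-3p 238 and 277 reads. The fitted differences were 11.48 ± 1.11 (log2, SE; edgeR adjusted p = 8.4e-06) and 12.78 ± 0.82 (adjusted p = 7.4e-07). Between mir-741 and its neighbours lies mir-3551, 1451 bp from mir-741, with 4 and 8 reads on its 3' arm in the testes and none in the other 10 libraries of the set. This is at least 450 times their level when 3 reads are allowed over the 10 libraries. The other 11 cluster hairpins in the files, mir-201 among them, summed to 2469 and 3510 reads in the testes and to 2 to 223 in each of the other 10 libraries. The size of the fitted values moved with single libraries, from 10.52 without the SHR testis to 13.61 without the BN-Lx kidney for mir-741-3p, and from 11.20 without the SHR testis to 16.64 without the BN-Lx testis for mir-3580-3p, and both were called in each of these fits.

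A second X-linked site held mir-3585, 4958 bp from mir-201, with its 5' arm at chrX:151706773-151706794. Its testis reads were 9 and 4 on the 5' arm and 3 each on the 3' arm. Kidney reads of the 5' arm were 5 in BN-Lx and 19 in SHR, which exceeded the testis in number but not in level. The fits called it higher in testis by 6.36 ± 1.04 (log2, SE; edgeR adjusted p = 0.00062) and in kidney by 2.90 ± 0.88 (adjusted p = 0.035), and lower in brain by -4.66 ± 1.62 (adjusted p = 0.025). The brain call was lost in 5 of 18 alternative fits, those without either brain or without the SHR liver, spleen or heart. The testis value was 4.87 without the BN-Lx testis, where it was not called, and 7.94 without the SHR testis. The kidney mean of 20.5 RPM lay below the mean of the other tissues, 47.8, which the testes raise, since the fit compares means of logarithms. The kidney call was lost in 10 of 18 alternative fits, among them those without the BN-Lx kidney (3.50) and without the SHR kidney (2.01).

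The kidneys of the 2 strains differed in these sequences. The BN-Lx kidney had 103 reads of mir-741-3p and 22 of mir-3580-3p, and the SHR kidney had none of either, at comparable depth. With 3 reads allowed in the SHR library the levels were at least 37.7-fold and 8.06-fold higher in BN-Lx. The 10 other cluster hairpins apart from mir-201 moved with them, all 10 being read in the BN-Lx kidney with 192 reads in sum and 2 in the SHR kidney with 6 reads, a ratio of 35.2 (15.9 to 97.0). By contrast mir-201 had 31 and 17 reads, a ratio of 2.00 (1.08 to 3.86), and its neighbour mir-3585-5p was lower in the BN-Lx kidney, at 0.289 times the SHR level (0.0844 to 0.801).

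Markers of testis stood higher in that kidney as well, though mir-463 among them is already counted in the cluster sum above. The testis list holds 4 hairpins, and all 4 had more reads in the BN-Lx than in the SHR kidney: 48 against 1 for mir-202, 1165 against 125 for mir-34c, 17 against 3 for mir-449a and 50 against 0 for mir-463. The summed level of the list was 2352 RPM in the BN-Lx kidney, 216 in the SHR kidney, and 51823 and 105729 in the testes. Most of its kidney reads were of mir-34c, which also stood at 987 RPM in the BN-Lx brain and 1777 in the SHR brain. The part of other tissue in the kidney values was not tested, and there was a single kidney per strain.

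Among the livers the same sequences appeared in BN-Lx. The 3 BN-Lx livers had 0, 15 and 70 reads of mir-741-3p and the 3 SHR livers 1, 0 and 2. For mir-3580-3p the numbers were 1, 3 and 8 against 0, 0 and 0, and for mir-3551-3p 8 reads came from the third BN-Lx liver alone. Of the 24 arms of the 30 hairpins with a read in the livers, only mir-3580-3p had strains that did not overlap in level, beside 33 of 555 arms in all (5.95%). The BN-Lx livers were uneven, and the third held most of their mir-741-3p reads.

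None of these differences passed the tests run here. The study itself reported mir-741-3p as higher in BN-Lx livers, with the variance estimated from miRNAs of similar level. The exact two-sided permutation test over the livers gave p = 0.40 for mir-741-3p and 0.10 for mir-3580-3p, the smallest that 3 against 3 allow. The permutation test could therefore not reach 0.05 for any arm. When edgeR was fitted to all 550 arms without the filter no arm was called, although 23 had an unadjusted p under 0.05. The adjusted p by edgeR was 0.38 for mir-741-3p and 0.53 for mir-3580-3p.

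The other cluster hairpins followed the same livers, where those apart from mir-201 summed to 2, 40 and 487 reads (BN-Lx) and 1, 2 and 9 reads (SHR). In the third BN-Lx liver all 10 were read, while mir-201 and the testis marker mir-202 were at 0 reads. For mir-449a there was 1 read and for mir-34c 14, a level within the range of the other livers, 10.8 to 95.8 RPM, and mir-463, which belongs to the cluster itself, had 153. Heart markers were at 592 RPM in this liver and at 521 in the third SHR liver, against 6.21 to 134 in the other livers, and their part was not tested.

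**Figure D5:**
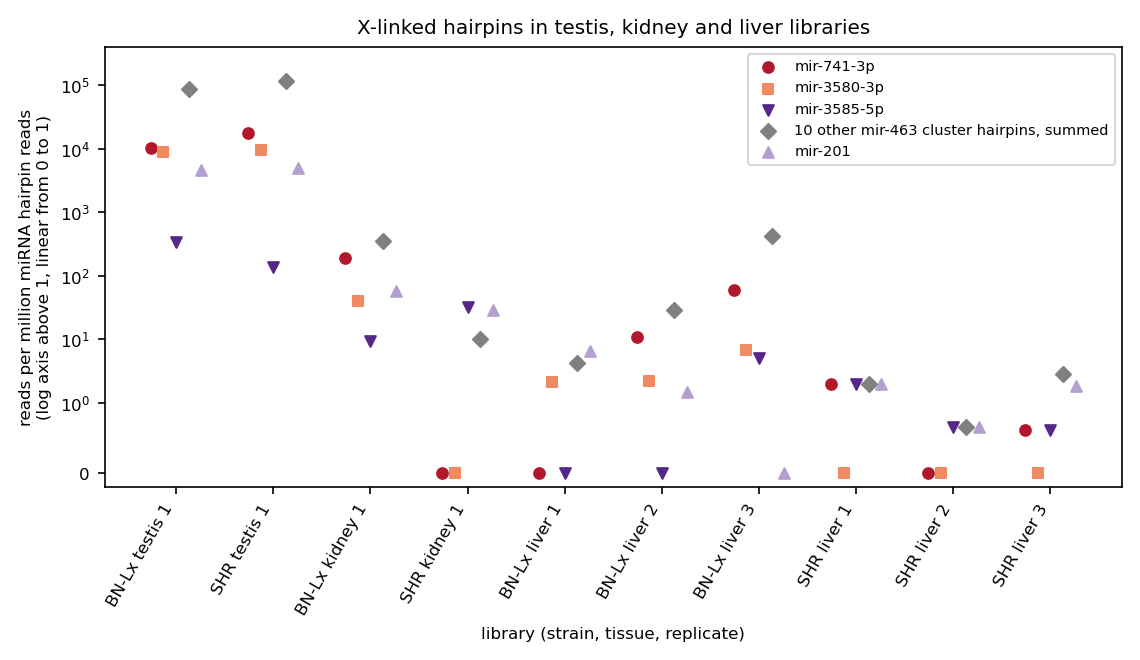
Level in RPM, on an axis that is logarithmic above 1 RPM, of mir-741-3p, mir-3580-3p, mir-3585-5p, the sum of 10 other mir-463 cluster hairpins and mir-201 in the testis, kidney and liver libraries. In the BN-Lx kidney and the third BN-Lx liver mir-741-3p, mir-3580-3p and the cluster sum stand above the SHR libraries of the same tissue, while mir-201 is at 0 in that liver.

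Beyond these places, 20 of the 30 hairpins lay inside the bounds of a protein-coding gene, and 11 had another annotated miRNA hairpin within 100 kb. The shares of other hairpins are not given here for these counts. On the X chromosome were 8 of the 30, beside 12.6% of the other rat hairpins. The table used for gene bounds gives neither exons nor strand, so that introns and host strands were not assigned. Of 25 RefSeq sequences on the 3' arm, 5 ended with AG, allowing 1 nt, and had at least 60% C or U, beside 12 of 346 other rat 3' arms (3.47%). This feature was picked after the sequences were seen. The 5 were mir-3542, mir-3550, mir-3572, mir-3583 and mir-3594, inside the bounds of Ddx41, MAST1, Cnot3, Dnajc8 and Cep131. Of these, mir-3542, mir-3550 and mir-3572 were read from the 3' arm only, with 32, 4 and 8 reads. In mir-3542 the reads were spread over brain (8 and 5), spleen (2 and 0), heart (3 and 5), kidney (3 and 4) and testis (2 and 0). In mir-3583 brain led, with 23 and 11 reads on both arms together and 21 and 5 on the 3' arm, and the spleen, heart, kidney and testis had 4 or fewer per library.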

How the data were processed

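Per the labels and the methods of the study, small RNA of 15 to 40 nt was sequenced on the SOLiD platform and mapped to hairpins with SHRiMP; the authors kept perfect matches and deposited, per library, an estimated count for each read position, with reads of several hairpins divided. The further livers were mapped to hairpins of the same list. Repeated rows (4436 of 53274) were summed, reads were split into arms by their midpoints (centres at least 20 nt apart), and levels are RPM, reads per 1000000 hairpin reads. Identifiers were joined to names by read position, or for mir-3594, which has no RefSeq hairpin, by read length (30 of 30, 28 with the same libraries). The remaining ones, mir-344b-2 and mir-3583, were joined by read position among the identifiers and names left over. Estimated counts were rounded for edgeR 4.0.16 (TMM, filterByExpr, quasi-likelihood test, Benjamini-Hochberg over all arms; SE taken from the F statistic) and DESeq2 1.42.0, after a test on simulated data. Intervals are exact (95%). Folds used RNAfold 2.7.2; coordinates and distances are of GRCr8. Deviations of livers with the same number correlated (r = 0.67, 0.57 and 0.30 over 270 arms). The liver values given above are nevertheless from unpaired tests, and a fit with the number as a block was an alternative. P-values of the liver tests measure the spread between these liver libraries. In that spread the rat cannot be told apart from library set, depth and PCR cycles. Those of the tissue fits rest on a single rat of each strain. They measure how far the libraries of the strains disagree within tissues, pooled over tissues. Values are given for the 12 hairpins with most reads, called arms, hairpins with 10 reads on each arm, those within 100 kb of another hairpin and those read mostly in the further livers. Members, lists and alternatives were chosen with earlier results of these data known.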

Additional observations from a re-analysis of the deposited data

How the results depend on the processing

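No called arm changed direction in any of 18 alternative tissue fits, and 5 of 17 calls held in all of them. The arms higher in brain numbered 5, with 1 under DESeq2 and 8 with no filter; in liver they went from 1 to 2 with no strain term or no filter and to 3 with all 16 libraries; in spleen from 2 to 1 under RLE, the outlier-corrected mean (ocm) and DESeq2; in heart from 0 to 1 with no strain term; in testis from 3 to 6 with no filter; in kidney from 2 to 0 under RLE and ocm and to 1 with all 16 libraries. Without 1 library in turn the counts ranged from 3 to 5 in brain (3 without either brain), 1 to 2 in liver (2 without either testis or the SHR spleen), 0 to 2 in spleen (0 without the BN-Lx spleen), 2 to 3 in testis and 0 to 3 in kidney (0 without the BN-Lx kidney, 3 without the SHR testis or the SHR kidney). Without the SHR brain mir-3085-3p and mir-344b-1-3p were not called in brain, and without the BN-Lx brain mir-3085-3p and mir-3552-5p. Without the BN-Lx testis mir-3585-5p was not called in testis, and without the BN-Lx spleen mir-1949-3p was not called in spleen. In the livers 0 arms of these hairpins were called in every fit. The count was also 0 with the replicate block, which pairs livers by number, and with the 4 further livers alone. Both-arm hairpins fell from 15 to 9 with 2 reads per arm and to 4 with 10; hairpins in both strains of a tissue fell from 21 to 11 with 10 reads. The causes were not tested, apart from the smaller numbers of reads or arms that these settings leave. Under ocm 1 of 18 arms changed its highest tissue, mir-3558-5p from testis (1 read) to spleen. Depth limits absence most in testis.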
